A study of Mus musculus with 8 samples.

Results

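The kinesin motor family was described in GFP-positive cells sorted from mouse kidneys 3 days after ischemic injury and from control kidneys. Members were the genes whose symbol begins with Kif and a digit on probe sets with a single symbol, and 37 of the 18193 genes measured were found this way. Kinesins are motor proteins that use ATP to move along microtubules or to take microtubules apart. Mitotic kinesins build the spindle, move chromosomes and bundle the midzone that divides the cell, and many of them are made mainly in cycling cells. Transport kinesins carry vesicles, organelles and ciliary cargo, also in cells that do not divide. By role, 11 members act in mitosis and cytokinesis, 13 in transport, 9 at microtubule ends or in cilia, and 4 fall in none of these.

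RNA of sorted cells was measured on Affymetrix mouse expression arrays, 1 per kidney, for 5 ischemic and 3 normal kidneys. All mice were C57BL/6 carrying FSP1-eGFP, a reporter in which the FSP1 (S100a4) promoter drives GFP, and were labelled male and 6 months old. Ischemia was made by closing the artery and vein of the left kidney with a clamp for 45 minutes, and these kidneys were taken on day 3 after reperfusion. The controls are called both normal and sham in the labels, which give no time after surgery for them, and p-values measure the spread between these 8 samples. The study names the sorted cells fibroblasts, and FSP1 is known to be active in other cells too. Of 10 fibroblast markers, Fn1 read 8.21 to 11.46 and Lum 4.18 to 4.79 over the 8 arrays, and Col3a1 ranged from 4.33 to 8.57. Of 13 macrophage markers, Lyz2 read 11.99 to 12.92 and C1qa 5.54 to 8.43. The mean of 8 endothelial markers was 6.82 to 9.62. Markers of several cell types thus gave signal, in proportions that these values do not give. Values here and below are log2(intensity + 16) after quantile normalization, a scale that understates the change of dim genes, and levels of different probe sets are not comparable.

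Some arrays went against their labels or stood apart. Although all mice were labelled male, the signal of Xist, the RNA of the inactive X chromosome, was 11.21 on ischemic array 1, 9.39 on ischemic array 2 and 11.01 on normal array 1, against 4.49 to 4.96 on the other 5. The same 3 arrays had the highest mean of 6 T and B cell markers, at 8.65, 7.05 and 7.22 against 4.86 to 5.67 elsewhere. Ischemic array 1 also had the lowest median correlation with the other arrays, 0.753 against 0.850 to 0.913. Where leaving out ischemic array 1 or another single array moved a kinesin's difference by much, a value without it is given. Proximal tubule markers averaged 6.48 to 8.11 on ischemic arrays and 9.16 to 10.91 on normal arrays, with all 11 measured members lower in the ischemic group (median difference -3.08). Macrophage markers averaged 9.43 to 10.34 against 8.95 to 9.09, with all 13 higher (median difference 0.64). In such bulk samples fewer cells of a type and less RNA per cell cannot be told apart, and how far these shifts in cell markers enter the kinesin values was not tested.

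The promoters of the mitotic members share letters that those of the transport members mostly lack. The sequences are shown because they were not used to choose or order the genes, and because cell cycle genes are known to carry a CHR element, often beside a CCAAT box, near their start. RefSeq windows of assembly GRCm38.p6, from 250 bases before to 50 bases after the start, were given for 31 of the 37 members. The letters TTTGAA (the core of the CHR, read on both strands) occurred in the windows of 9 of 10 mitotic members, 1 of 10 transport members and 17.9% of all 32851 windows. In the last 150 bases they occurred in 7 of 10 mitotic members and in 8.01% of all windows. CCAAT, likewise on both strands, occurred in 6 of 10 mitotic and 3 of 10 transport members and in 37.4% of all windows. Below are the last 150 bases of 6 mitotic members and, for contrast, of the transport kinesin Kif1c, 5′ to 3′, with TTTGAA and CCAAT or their reverse complements in capitals.
Kif11, chr19:37376282-37376431, plus strand: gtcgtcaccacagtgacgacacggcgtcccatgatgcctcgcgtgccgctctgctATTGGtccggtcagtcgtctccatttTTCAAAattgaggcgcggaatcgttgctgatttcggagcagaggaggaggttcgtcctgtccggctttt
Kif18b, chr11:102925075-102925224, minus strand: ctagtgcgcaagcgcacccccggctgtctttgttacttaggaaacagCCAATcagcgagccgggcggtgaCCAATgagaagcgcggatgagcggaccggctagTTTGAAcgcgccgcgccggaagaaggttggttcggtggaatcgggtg
Kif22, chr7:127042371-127042520, minus strand: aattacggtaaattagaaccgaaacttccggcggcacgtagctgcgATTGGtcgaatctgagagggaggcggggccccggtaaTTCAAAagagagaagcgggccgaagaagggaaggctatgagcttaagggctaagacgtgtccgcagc
Kif23, chr9:61946750-61946899, minus strand: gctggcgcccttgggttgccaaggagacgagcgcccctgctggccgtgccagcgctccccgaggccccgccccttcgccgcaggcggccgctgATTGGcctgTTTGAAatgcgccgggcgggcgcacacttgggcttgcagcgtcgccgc
Kif4, chrX:100625965-100626114, plus strand: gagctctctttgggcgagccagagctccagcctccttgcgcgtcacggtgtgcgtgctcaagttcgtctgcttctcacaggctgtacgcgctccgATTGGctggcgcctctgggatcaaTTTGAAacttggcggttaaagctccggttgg
Kif20b, chr19:34922258-34922407, plus strand: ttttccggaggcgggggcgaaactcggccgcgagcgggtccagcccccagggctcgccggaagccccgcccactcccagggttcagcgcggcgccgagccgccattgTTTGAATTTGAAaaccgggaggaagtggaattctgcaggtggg
Kif1c, chr11:70700448-70700597, plus strand: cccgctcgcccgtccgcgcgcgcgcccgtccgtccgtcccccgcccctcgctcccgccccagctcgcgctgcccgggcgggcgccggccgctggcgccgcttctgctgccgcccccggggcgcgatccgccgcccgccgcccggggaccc
In Kif11 the TTTGAA match, on the reverse strand, begins 19 bases before the start and the CCAAT match 45 bases before it. Kif22 has the same pair at 17 and 54 bases before the start, and Kif18b has CCAAT at 53 and 30 bases before it. Kif20b holds 2 adjoining copies of TTTGAA but no CCAAT in the stretch shown, and Kif1c holds neither. Every mitotic member shown holds TTTGAA there, while Kif14, Kif2c and Kif18a, not shown, do not. Of the transport members not shown, Kif1a has TTTGAA 44 bases before the start. Kif3a and Kif3b have CCAAT 18 and 69 bases before it, and Kif1b has CCAAT matches from 153 to 87 bases before it. A match describes letters in a window; no binding or promoter activity was measured here.

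No kinesin gene passed limma's test across all genes, and neither did any other gene (0 of 18193, or 0%, at an adjusted p under 0.05). At an unadjusted p under 0.05, 2.11% of all genes were higher and 5.02% lower in ischemic arrays, and 1 of 37 kinesins, Kif21a, was among the latter. Of all 37 members 19 had a positive and 18 a negative difference, with a median of 0.0059 beside 0.041 for all genes. A difference larger than its own standard error was found for 37.8% of the kinesins and for 36.2% of all genes.

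**Figure D1:**
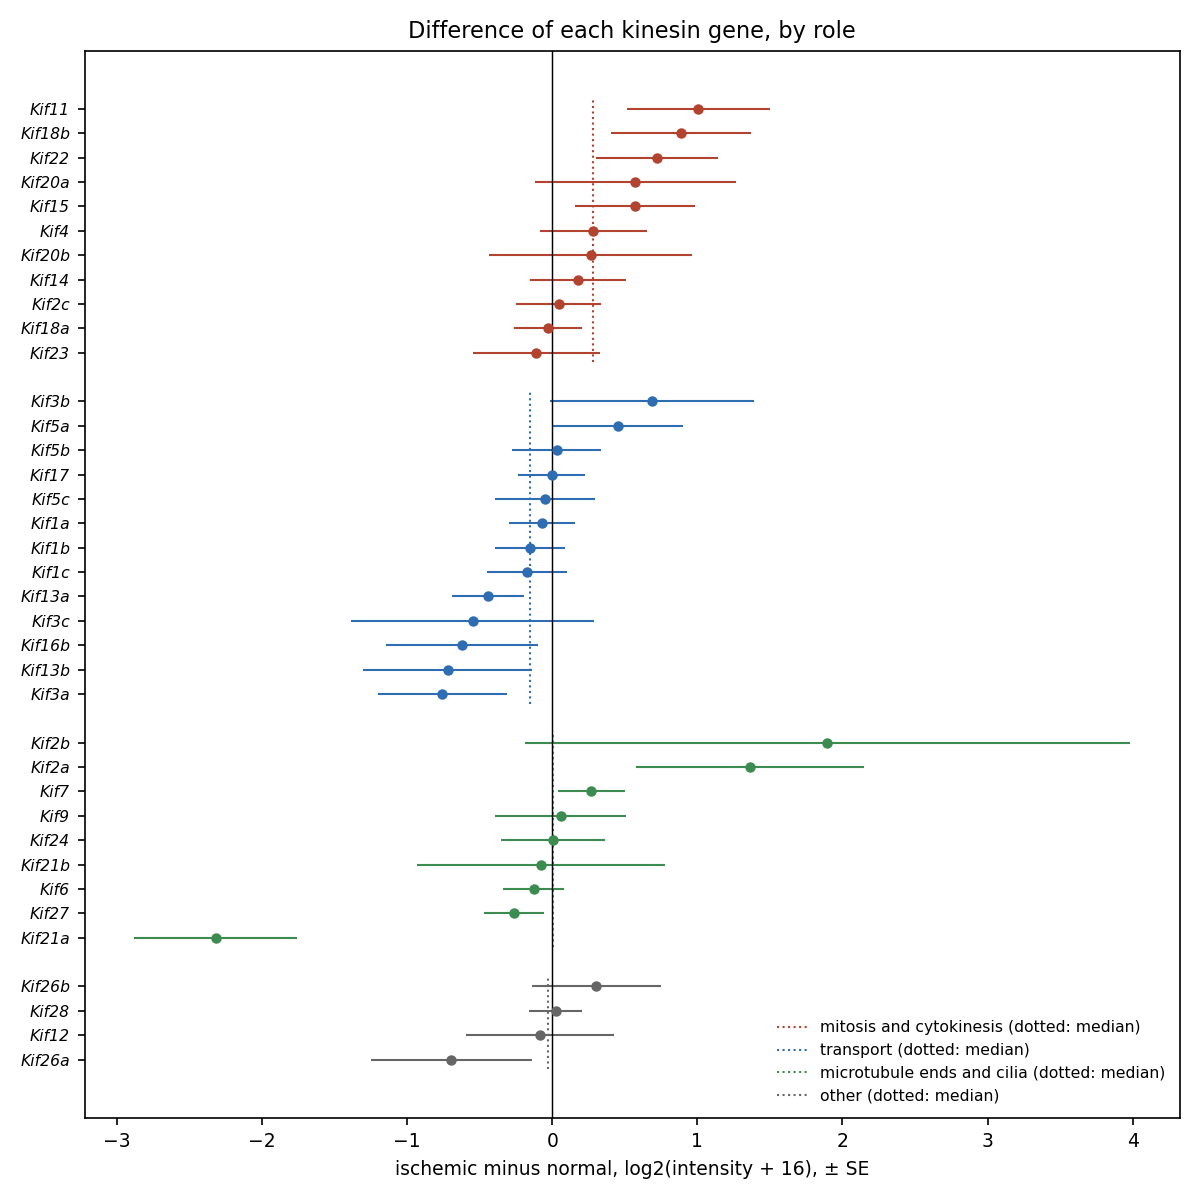
Difference between 5 ischemic and 3 normal arrays for each of the 37 kinesin genes, on the log2(intensity + 16) scale, with the limma standard error as a line and the median of each role dotted. Of the mitotic members 9 of 11 lie right of zero and of the transport members 10 of 13 lie left of it, most within about their standard error, and Kif21a stands alone at -2.32.

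Among the motors of mitosis and cytokinesis, 9 of 11 had a higher mean in ischemic arrays, with a median difference of 0.28 and differences from -0.11 to 1.01. None had every ischemic array above every normal array, a pattern that 1.89% of all genes showed, and limma's adjusted p ran from 0.76 to 0.99. Without ischemic array 1 the count was 8 of 11 and the median 0.25, while the median was 0.58 without ischemic array 4, 0.44 without normal array 1 and 0.17 without normal array 2. On the 5 arrays of low Xist signal it was 8 of 11 with a median of 0.31, and on the 3 of high Xist signal 8 of 11 with 0.16. The members are therefore given array by array.

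Kif11 is the plus-end motor that pushes spindle poles apart. Its signal was 6.61, 7.14, 7.67, 5.90 and 6.66 on ischemic arrays 1 to 5 and 4.84, 6.67 and 5.85 on normal arrays 1 to 3. Normal array 1 was lowest of all, while normal array 2 lay above 3 of the ischemic arrays, so the groups overlapped. The difference of 1.01 ± 0.49 (SE), 2.01-fold on this scale, had a limma adjusted p of 0.76. It was 0.54 without normal array 1 and 0.48 on the arrays of low Xist signal. Of the dimmer Kif11 probe sets, one differed by 0.12 ± 0.38 and another by 1.12 ± 0.61 (SE). On the former, normal array 1 was not lowest but the highest normal array, at 5.76.

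Kif18b, which trims the ends of astral microtubules in mitosis, read 5.44, 6.19, 6.89, 4.57 and 5.33 on ischemic and 4.84, 4.56 and 4.98 on normal arrays. Ischemic array 4 alone fell within the normal range, and the other 4 ischemic arrays were above it. The difference was 0.89 ± 0.48 (SE), with a limma adjusted p of 0.83, and it was 0.59 without ischemic array 3. Kif22, which pushes chromosome arms outward on the spindle, read 7.77, 8.19, 7.65, 6.62 and 6.54 on ischemic and 6.96, 6.49 and 6.45 on normal arrays. Ischemic arrays 1, 2 and 3 were above all normal arrays and ischemic arrays 4 and 5 were among them, with a difference of 0.72 ± 0.42 (SE).

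Kif15, a motor that backs up Kif11 at the spindle, read 6.78, 5.40, 5.20, 5.25 and 4.87 on ischemic and 4.95, 4.75 and 5.08 on normal arrays. Its difference of 0.57 ± 0.41 (SE) came mostly from ischemic array 1, without which it was 0.25. Kif4, a chromosome-bound motor that shortens the midzone, read 6.14, 5.05, 5.88, 4.63 and 5.35 against 5.44, 4.77 and 5.18 (difference 0.28 ± 0.37, SE). For Kif4 the lowest of the 8 arrays was ischemic array 4, the groups overlapped, and the difference was 0.10 without ischemic array 1 or without normal array 2.

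Of the mitotic members, Kif20a and Kif20b varied most among the ischemic arrays (SD 1.23 and 1.11, n = 5). Kif20a, which brings the chromosomal passenger complex to the midzone, read 5.85, 7.65, 8.16, 5.24 and 7.19 on ischemic and 5.70, 7.07 and 5.96 on normal arrays. Kif20b, a midzone motor needed late in division, read 5.13, 7.26, 7.08, 4.79 and 6.05 on ischemic and 7.05, 5.00 and 5.34 on normal arrays. Their differences, 0.57 ± 0.69 and 0.26 ± 0.70 (SE), were smaller than their errors. With 1 array left out, that of Kif20a ran from 0.24 (without ischemic array 3) to 0.99 (without normal array 2) and that of Kif20b from -0.14 (without normal array 2) to 0.89 (without normal array 1). On these probe sets both were high on ischemic arrays 2 and 3 and low on ischemic arrays 1 and 4. The dimmer Kif20b probe sets differed by 0.74 ± 0.39, 0.35 ± 0.32 and -0.04 ± 0.21 (SE). On the first of these ischemic array 1 was highest, at 6.86.

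Kif23, the motor subunit of centralspindlin, read 7.26, 8.46, 8.03, 6.71 and 7.20 on ischemic and 8.23, 7.56 and 7.13 on normal arrays, a difference of -0.11 ± 0.44 (SE). The groups overlapped over the whole normal range. A dimmer probe set of Kif23 read 5.71, 7.48, 6.83, 5.89 and 6.39 against 4.73, 5.33 and 5.66, with all ischemic arrays above all normal ones and a difference of 1.22 ± 0.43 (SE). The third and dimmest overlapped between groups, with a difference of 0.25 ± 0.35 (SE). The rule of highest mean took the first, the only one with a negative difference, which was smaller than its error.

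The remaining mitotic members were dim. Kif2c, which takes microtubules apart at centromeres, read 5.70, 5.28, 4.88, 5.00 and 4.68 against 5.45, 5.02 and 4.72 (difference 0.05 ± 0.29, SE). Kif18a, which steadies chromosomes at the spindle equator, read 5.27, 5.32, 4.75, 4.99 and 5.08 against 5.17, 5.39 and 4.77 (difference -0.03 ± 0.23, SE). Kif14, a cytokinesis motor, read 4.25, 4.25, 4.21, 5.45 and 4.12 against 4.27, 4.27 and 4.30, so its difference of 0.18 ± 0.33 (SE) rests on ischemic array 4 and was -0.07 without it. For none of these 3 probe sets was the difference larger than its error. The dimmer Kif2c probe sets disagreed in sign, at 0.59 ± 0.28, 0.68 ± 0.45 and -0.20 ± 0.18 (SE).

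**Figure D2:**
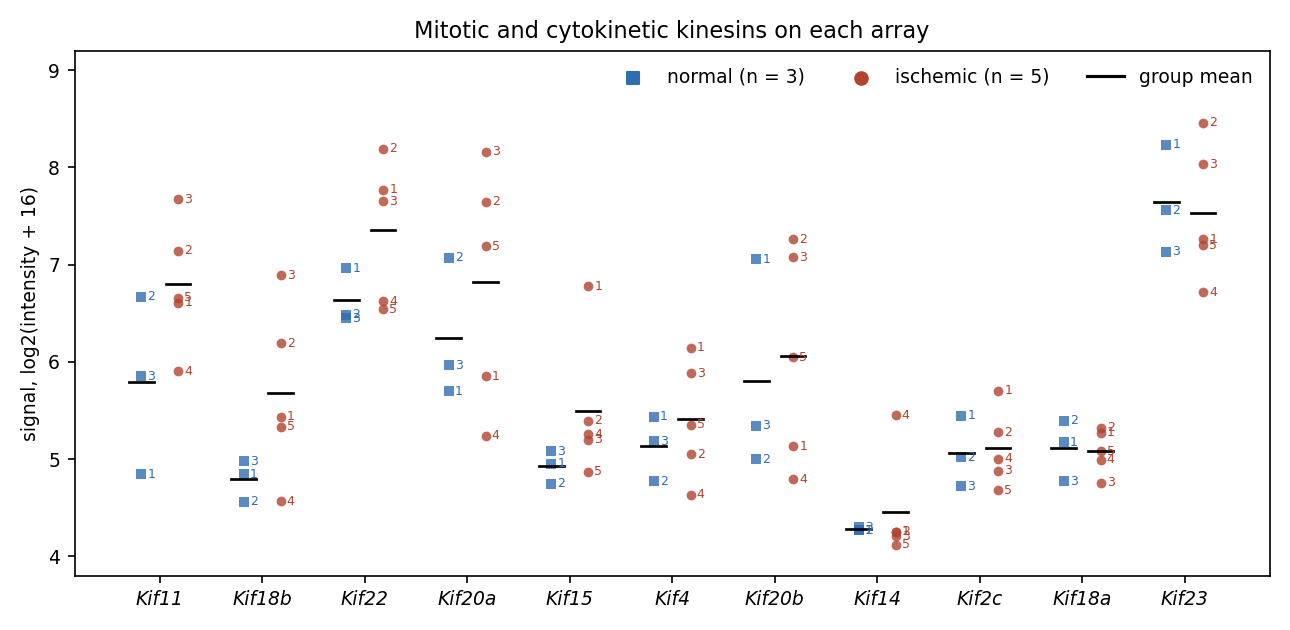
Signal of the 11 mitotic and cytokinetic kinesins on each array, on the log2(intensity + 16) scale; squares are the 3 normal and circles the 5 ischemic arrays, digits give the array number and bars the group mean. Ischemic arrays 1, 2 and 3 each hold the highest value of 3 genes, ischemic array 4 is the lowest of all 8 arrays for 4 of the 11, and the groups overlap for every gene.

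Over all probe sets the direction was similar. The 11 mitotic genes have 24 probe sets, of which 20 had a positive difference, with a median of 0.46. In 2 of the 24, the dimmer Kif23 probe set and one of Kif2c (difference 0.59), every ischemic array was above every normal array, beside 1.77% of all 34945 probe sets. When the probe sets of each gene were averaged in place of taking the brightest, all 11 mitotic genes had a positive difference. The 13 transport genes have 51 probe sets, 25 positive and 26 negative, with a median of -0.0024, so their lean to the negative side was not seen over all of their probe sets.

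**Figure D3:**
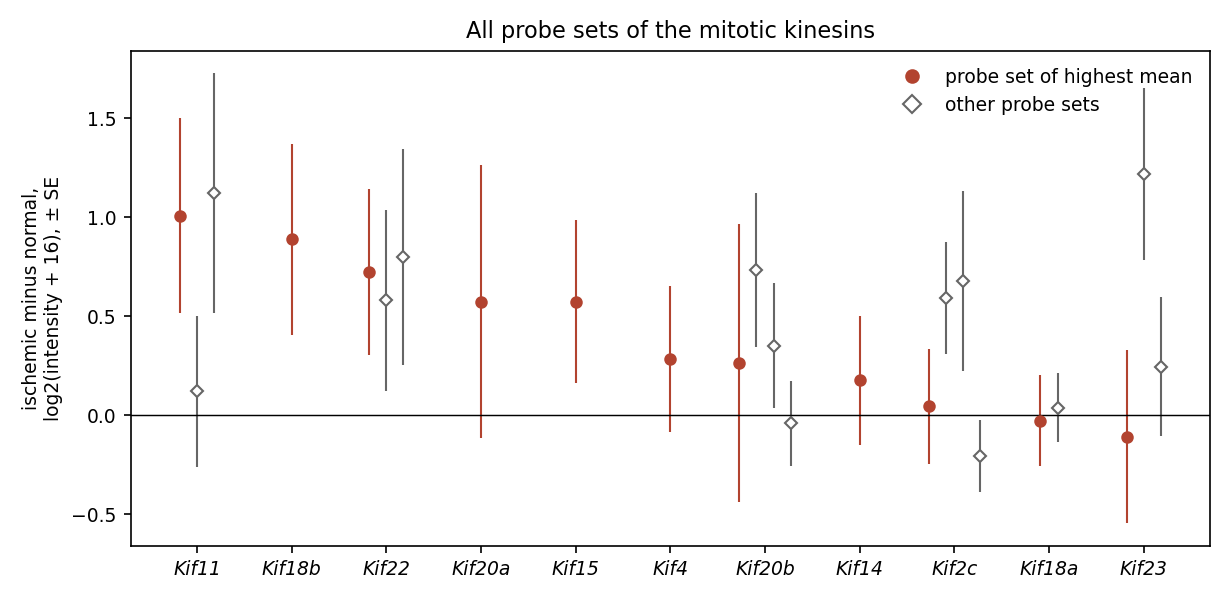
Difference between ischemic and normal arrays for each of the 24 probe sets of the mitotic kinesins, on the log2(intensity + 16) scale with the limma standard error; filled circles mark the probe set of highest mean and open diamonds the others. Of the 24, 20 are above zero, and for Kif23 the filled circle at -0.11 and the upper diamond at 1.22 lie on opposite sides.

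Of the 13 transport kinesins, 3 had a positive and 10 a negative difference, with a median of -0.15, a range from -0.76 to 0.69 and limma adjusted p values of 0.84 or more. None had groups apart. Kif5b, the conventional kinesin heavy chain found in most cells, read 10.16, 10.15, 9.13, 10.14 and 9.46 on ischemic and 10.00, 9.79 and 9.55 on normal arrays. Its difference of 0.03 ± 0.31 (SE) was a small part of its error, and it turned negative with arrays centred on their median (-0.22) or on ribosomal protein genes (-0.37).

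Kif1c, which carries vesicles and adhesion proteins to the cell edge, read 9.18, 9.60, 9.42, 10.14 and 9.83 against 10.13, 9.52 and 9.77 (difference -0.17 ± 0.28, SE). Kif1b, which carries mitochondria and vesicles, read 8.40, 8.74, 8.06, 8.71 and 8.71 against 8.69, 8.45 and 8.88 (difference -0.15 ± 0.24, SE). On these probe sets the 2 groups of arrays overlapped almost fully for both genes. Without ischemic array 1 the Kif1c difference was -0.06, and without ischemic array 3 that of Kif1b was -0.04. The sign for Kif1c was positive, 0.15, on the arrays of low Xist signal. Dimmer probe sets of Kif1b ran from -1.20 ± 0.58 to 0.49 ± 0.32 (SE), so its direction varied with the probe set. Those of Kif1c were all negative, at -0.39 to -0.35.

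The heterotrimeric kinesin-2 motor, which carries cargo into cilia, is built of Kif3a with Kif3b or Kif3c, and its subunits gave no common direction. Kif3a had a difference of -0.76 ± 0.45 (SE), Kif3b of 0.69 ± 0.70 and Kif3c of -0.55 ± 0.84. For Kif3b the highest array was ischemic array 1, at 10.11, and the other 4 ischemic arrays read 6.71 to 7.98 against 6.88 to 7.44 in normal arrays. The Kif3b difference was 0.13 without that array and -0.07 on the arrays of low Xist signal. Its other probe sets differed by 0.79 ± 0.45, 0.10 ± 0.78 and -0.10 ± 0.55 (SE), so its sign is not settled. The Kif3c difference was -0.03 without normal array 2, -1.05 without ischemic array 1 and -1.33 without normal array 3. The second probe set of Kif3c differed by 0.83 ± 0.61 (SE). Kif13a, Kif13b and Kif16b, motors of endosomal and membrane traffic, had differences of -0.44 ± 0.25, -0.72 ± 0.58 and -0.62 ± 0.52 (SE). These were -0.23 for Kif13a without normal array 2, and -0.41 for Kif13b and -0.24 for Kif16b without ischemic array 1. The dimmer probe sets of Kif13b and Kif16b were all positive, at 0.12 to 0.34 and at 0.13 and 0.27. Those of Kif13a ran from -0.22 to 0.31, so the direction of these genes varied with the probe set. The other 4 transport members, Kif5a, Kif5c, Kif1a and Kif17, lay between -0.07 and 0.45. The 6 genes of the Kif3, Kif13 and Kif16 groups were described in addition to the rule for named genes.

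Set against each other within each array, the mitotic and transport roles gave a contrast that does not depend on how whole arrays are centred. The mean over the 11 mitotic genes was 6.02, 6.38, 6.40, 5.38 and 5.73 on ischemic and 5.72, 5.59 and 5.43 on normal arrays, or 5.98 ± 0.44 (SD, n = 5) against 5.58 ± 0.14 (SD, n = 3). That over the 13 transport genes was 7.32, 7.30, 7.04, 7.12 and 7.12 on ischemic and 7.40, 7.53 and 7.15 on normal arrays, or 7.18 ± 0.12 (SD, n = 5) against 7.36 ± 0.19 (SD, n = 3). The mitotic mean minus the transport mean was -1.30, -0.91, -0.64, -1.74 and -1.38 on ischemic and -1.68, -1.93 and -1.71 on normal arrays.

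On this contrast 4 of the 5 ischemic arrays were above all 3 normal arrays, and ischemic array 4 was among the normal ones. The ischemic mean exceeded the normal mean by 0.58, beside an SD of 0.43 (n = 5) among ischemic and 0.14 (n = 3) among normal arrays. The value was 0.61 without ischemic array 1, 0.57 on the arrays of low Xist signal and 0.72 without ischemic array 4. Leaving out ischemic array 3, where the contrast was highest at -0.64, lowers it. Over all alternatives the value ran from 0.37 to 0.83. No test is given, since the genes were grouped with earlier results of these data known.

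**Figure D4:**
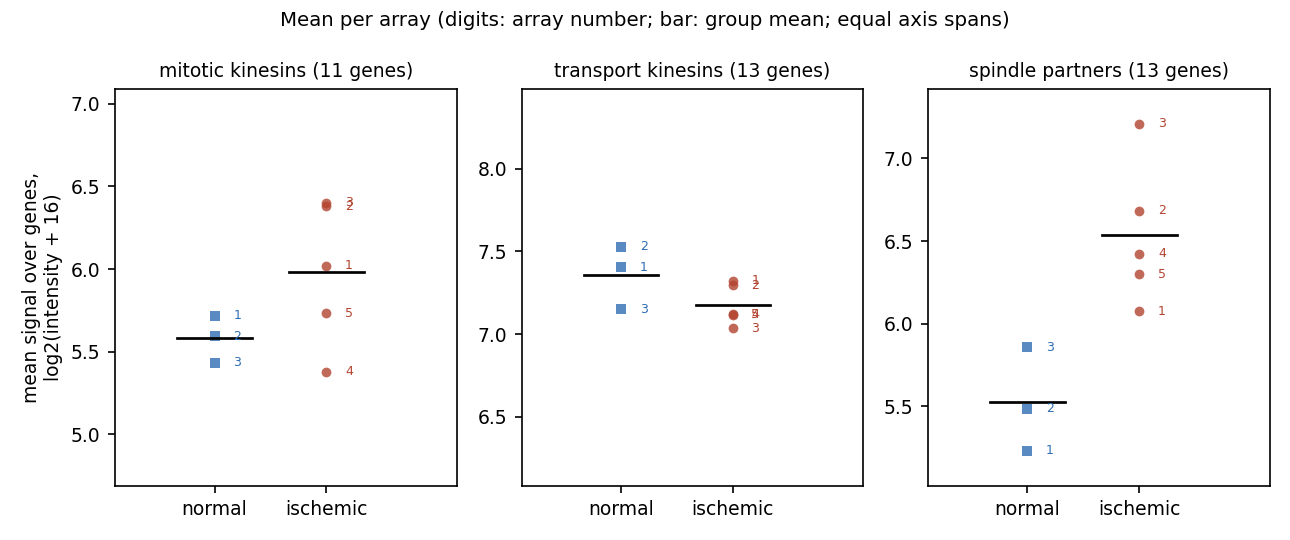
Mean signal per array over the 11 mitotic kinesins, the 13 transport kinesins and 13 spindle and midzone partners, on the log2(intensity + 16) scale. Squares are normal and circles ischemic arrays, digits give the array number, bars the group mean, and the 3 axes span the same range. The spindle partners are the only one of the 3 sets with every ischemic array above every normal array, and ischemic array 4 is the lowest for the mitotic kinesins but not for the partners.

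Among proteins that work with the mitotic kinesins, all 13 spindle and midzone partners had a positive difference, the smallest 0.03 ± 0.27 (SE) for Plk1. The median was 1.04 beside 0.28 for the motors, a gap that was not tested. The mean of the partners was 6.07 to 7.21 on ischemic and 5.23 to 5.86 on normal arrays. Every ischemic array was above every normal array for 5 of the 13, beside 1.89% of all genes, and none passed limma's adjusted threshold. Prc1, the microtubule bundler that recruits Kif4, read 5.50, 6.85, 6.89, 6.44 and 6.30 against 4.66, 4.30 and 5.32 (difference 1.64 ± 0.38, SE; limma adjusted p = 0.19).

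The others with groups apart were Cep55 (1.63 ± 0.45), the abscission scaffold, Tpx2 (1.10 ± 0.34), which targets Kif11 and Aurora A to the spindle, Cdca8 (1.08 ± 0.26), of the chromosomal passenger complex, and Ect2 (0.97 ± 0.38), which acts with centralspindlin. Incenp, of the same passenger complex, overlapped between groups, with a difference of 0.59 ± 0.65. Of 7 proliferation markers measured all 7 had a positive difference, with a median of 1.01. Mki67, a marker of cycling cells, read 9.34, 10.14, 10.36, 9.75 and 9.78 against 6.86, 8.90 and 9.30, with the groups just apart, and Pcna differed by 0.49. On ischemic array 4 the mean of the partners, 6.42, and of the markers, 7.96, was above that of every normal array, while the mean of the mitotic kinesins, 5.38, was below all of them.

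Of 17 kinesin relatives and partners listed 16 were measured, 7 with a positive difference, and the median was -0.17. Cenpe, a kinesin of the centromere whose symbol falls outside the family rule, read 5.96, 7.60, 7.99, 7.64 and 6.86 on ischemic and 4.26, 5.38 and 5.71 on normal arrays. Its groups were apart, with a difference of 2.09 ± 0.52 (SE) and a limma adjusted p of 0.22, above the threshold. The adaptor Trak1 (-0.02) and Kifap3 (-0.33, or -0.03 without ischemic array 1), the accessory subunit of kinesin-2, overlapped between groups. For dynein and dynactin, the machinery that moves the other way on microtubules, 6 of 17 differences were positive with a median of -0.19. Of the light chains, Dynlrb1 differed by -0.43 and Dynll1 by 0.35, with overlapping groups. Dynll2, named after its values were seen, was the only one of the 17 with groups apart, a pattern that 3.44% of all genes showed in this direction. It read 8.38, 8.57, 8.97, 7.26 and 9.13 on ischemic and 9.45, 9.91 and 9.29 on normal arrays. The difference was -1.09 ± 0.42 (SE), with a limma adjusted p of 0.61. It was 0.12 when probe sets ending in _s_at or _x_at, which can match several genes, were left out.

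Among the 9 members that act at microtubule ends or in cilia, 5 differences were positive and 4 negative, and this role held the largest differences of the family in both directions. Kif21a, a motor that halts microtubule growth at the cell cortex, read 6.34, 4.58, 5.73, 5.04 and 5.67 on ischemic and 8.64, 8.26 and 6.47 on normal arrays. All ischemic arrays were below all normal arrays, as for 3.44% of all genes, although ischemic array 1 and normal array 3 were close. The difference of -2.32 ± 0.56 (SE) means a 4.99-fold higher mean in normal arrays on this scale, with a limma adjusted p of 0.22.

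The Kif21a difference was negative in all 24 alternatives run, from -3.18 to -1.51, and the lowest adjusted p was 0.052, without normal array 3. The difference was -2.54 without ischemic array 1 and -1.88 on the arrays of low Xist signal. Of its other probe sets one read 6.50, 5.03, 5.63, 5.26 and 4.99 against 8.58, 6.67 and 6.52, also with groups apart, a pattern in the lower direction that 2.93% of all probe sets showed. The third was near the bottom of the scale and overlapped (-0.44 ± 0.20, SE). The proximal tubule marker mean was also lower on every ischemic than on every normal array, at 7.19, 8.11, 7.74, 6.48 and 7.17 against 10.91, 10.31 and 9.16. Among normal arrays its order was that of Kif21a, and among ischemic arrays it was not, since array 2 had the highest marker mean and the lowest Kif21a. The part of tubular RNA in the difference was not tested.

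Kif2a, which takes microtubules apart at spindle poles and in interphase cells, read 9.85, 6.33, 7.11, 7.65 and 6.62 on ischemic and 5.35, 6.02 and 7.08 on normal arrays. Its difference of 1.36 ± 0.79 (SE) was 0.78 without ischemic array 1, and its other 4 probe sets differed by 0.20 to 0.84. Kif21b, the close relative of Kif21a, read 7.88, 7.79, 6.03, 4.35 and 5.36 against 7.30, 5.50 and 6.27, a difference of -0.08 ± 0.85 (SE). For Kif21b the 3 highest values were on the 3 arrays of high Xist signal. Its second probe set did not share this, with normal array 1 lowest at 4.46 and a difference of 0.61 ± 0.32 (SE).

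Kif2b, a relative of Kif2a named here after its values were seen, read 13.53 on ischemic array 1 and 4.09 to 4.40 on the other 7 arrays. Of all 18193 genes this was the largest gap by which ischemic array 1 stood above every other array, 9.13, and no other gene there reached 8. The difference of 1.90 ± 2.08 (SE) was 0.04 without that array. The other 5 members of this role, the ciliary or centriolar kinesins Kif6, Kif7, Kif9, Kif24 and Kif27, had differences from -0.26 to 0.27.

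The 4 members in no other role had differences from -0.69 to 0.30. Kif26a, an atypical kinesin without motor activity, read 7.60, 8.16, 7.13, 9.35 and 9.33 on ischemic and 8.48, 9.33 and 9.22 on normal arrays (difference -0.69 ± 0.56, SE). Ischemic arrays 1, 2 and 3 were below the normal arrays and ischemic arrays 4 and 5 at the top of the normal range, which is the split seen for Kif22 with the sign turned. Without ischemic array 3 the Kif26a difference was -0.40. Kif26b, its relative with a known part in kidney development, read 6.28, 6.60, 5.11, 5.15 and 5.26 against 4.73, 5.91 and 5.48 (difference 0.30 ± 0.45, SE; -0.015 without normal array 1).

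Kif12, a kinesin of renal epithelium, read 7.45, 5.80, 5.50, 5.82 and 5.22 against 6.66, 5.87 and 5.59 (difference -0.08 ± 0.51, SE; -0.46 without ischemic array 1). Its second probe set read 4.22 to 4.56 on ischemic arrays and 6.30, 4.88 and 4.79 on normal arrays, with groups apart and a difference of -0.88 ± 0.35 (SE). Distal nephron and collecting duct markers, which averaged 5.86 to 6.66 on ischemic and 7.81 to 8.13 on normal arrays, differed in the same direction, and their part in the Kif12 values was not tested. Kif28 was near the bottom of the scale in both groups.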

How the data were processed

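Cells were FACS-sorted for GFP from 5 ischemic and 3 normal kidneys, and their RNA was extracted (Qiagen miRNeasy), amplified and labelled (NuGEN) for Affymetrix arrays, per the labels' protocols. The authors deposited linear intensity values for 45101 probe sets; for the software, background correction and scaling, nothing is stated (not given in the sources used here). The annotation gave 1 symbol for 34945 probe sets, several for 932 and none for 9160; 64 controls were left out.

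Values were taken as log2 of the deposited intensity + 16 and quantile normalized, since array quartiles differed by up to 0.39. A gene was its probe set of highest mean, with no filter on brightness. Groups came from sample titles. They were compared over all 18193 genes with limma 3.58.1 (lmFit and eBayes, R 4.3.3), Benjamini-Hochberg adjusted, with a threshold of 0.05; the step was checked on simulated data. Figures used matplotlib 3.10.9. Replicate numbers were not used to pair the samples in the main fit. Same-numbered arrays deviated from their group means with correlations of 0.16, -0.088 and 0.10. Arrays of different numbers were not compared this way, so pairing is not excluded.

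The rule for named genes took every mitotic kinesin, the 3 members of highest mean level in each other role, members with groups apart or an unadjusted p under 0.05, the 2 members of highest mean level in each list, and spindle partners or kinesin relatives with groups apart. The members and lists were chosen with earlier results of these data known. The arrays of high Xist signal were divided from the rest by that signal. Alternatives covered normalization, pseudocount, dim genes, probe sets, variance model, Xist class, the replicate block and each array left out.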

Additional observations from a re-analysis of the deposited data

Results flagged for a closer look

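Of 30 series of 5 ischemic arrays examined, 4 had an array far from the others by Dixon's criterion, which chance meets in about 1 of 20 groups; the normal group, of 3, was not examined this way. On ischemic array 1, Kif2b read 13.53 (nearest array 4.40), Kif15 6.78 (nearest 5.40) and Kif12 7.45 (nearest 5.82). On ischemic array 4, Kif14 read 5.45 (nearest 4.25). Ischemic array 1 was the highest of the 8 arrays for 14 of 37 kinesins and for 25.1% of all genes.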

How the results depend on the processing

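No named kinesin passed limma's adjusted threshold in any alternative. Of 27 named kinesins 14 kept their sign throughout, among them Kif11, Kif18b, Kif22, Kif20a, Kif15, Kif4 and Kif21a, and the mitotic minus transport contrast was 0.37 to 0.83. The count of all genes past the threshold, 0, became 140 with ribosomal centring, 31 with trend, 15 above the 40th percentile, 5 with array weights, 3 at an adjusted p of 0.1, 2 without normalization or with the mean of probe sets, 1 with a pseudocount of 1 or Xist class as a block, and 0 to 113 with an array left out (113 without normal array 3). With the replicate block, on shared numbers or all arrays, the mitotic median was 0.69, 3 mitotic members had groups apart and higher (shared numbers), and signs turned for Kif23 (0.28), Kif18a (0.0034), Kif14 (-0.042), Kif21b (0.87), Kif3c (0.10) and Kif12 (0.21). That count was 1 on the arrays of low and 6 on those of high Xist signal (2 against 1), and 0 to 1 with an array left out. Of all 18193 genes, 344 had groups apart and higher on all 8 arrays and 1038 with shared numbers. This rose to 1912 on the arrays of low and 6341 on those of high Xist signal, and was 461 to 1131 with an array left out. The transport median was -0.33 with median centring, -0.48 with ribosomal centring, -0.35 without normalization, -0.44 above the 60th percentile and 0.046 on arrays of high Xist signal. Signs also turned with median centring (Kif18a 0.0070, Kif5b -0.22), ribosomal centring (Kif2c -0.092, Kif5b -0.37, Dynll1 -0.035), no normalization (Kif5b -0.24), a pseudocount of 64 (Kif21b 0.057), probe sets not ending in _s_at or _x_at (Dynll2 0.12), the mean of probe sets (Kif23 0.45, Kif18a 0.0055, Kif21b 0.27, Kif3c 0.14, Kif5b -0.0065), array weights (Kif23 0.14, Kif2c -0.027, Kif26b -0.030, Kif5b -0.14, Kif3b -0.0061, Trak1 0.036), low Xist signal (Kif2c -0.017, Kif26b -0.52, Kif5b -0.091, Kif1c 0.15, Kif2b -0.016, Kif3b -0.070, Incenp -0.25, Trak1 0.26, Kifap3 0.063), high Xist signal (Kif20b -0.86, Kif18a 0.12, Kif14 -0.016, Kif21b 0.54, Kif3c 0.26) and Xist class as a block (Kif5b -0.0030). With an array left out, values ran from -0.12 to 0.24 for Kif2c, -0.085 to 0.20 for Kif5b, -0.14 to 0.89 for Kif20b, -0.20 to 0.11 for Kif18a, -0.46 to 0.23 for Kif12, -0.36 to 0.19 for Kif23, -0.072 to 0.26 for Kif14, -0.50 to 0.40 for Kif21b, -0.015 to 0.57 for Kif26b, -0.20 to 0.19 for Trak1 and -0.19 to 1.36 for Incenp. The causes were not tested.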
